A study of Mus musculus with 11 samples.

Results

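The mitochondrial respiratory chain genes of the nuclear genome were examined in liver sinusoidal endothelial cells (ECs) of mice with and without a microbiota. The rule for the members uses gene symbols and no measured values, although it was set with earlier results of these data known. It takes all NADH dehydrogenase subunit genes with the prefixes *Ndufa*, *Ndufb*, *Ndufc*, *Ndufs* or *Ndufv* and a number, the genes *Sdha* to *Sdhd*, all genes starting with *Uqcr*, and the cytochrome c oxidase genes *Cox4* to *Cox8* with their isoforms. The rule found 67 of the 29307 listed genes. Of these, 35 belong to complex I, 4 to complex II, 8 to complex III and 20 to complex IV. *Ndufa4* and its paralog *Ndufa4l2* carry complex I names but were grouped with complex IV, since NDUFA4 is now counted as a subunit of cytochrome c oxidase, and *Cox7a2l*, whose product helps to join complexes III and IV into supercomplexes, was grouped there too.

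The respiratory chain passes electrons from NADH (complex I) and succinate (complex II) through ubiquinone, complex III and cytochrome c to oxygen at complex IV, and pumps protons that drive ATP synthesis by complex V. Most subunits are encoded in the nucleus, made in the cytosol and imported, while the catalytic centres of complexes I, III and IV also need subunits made inside mitochondria from mitochondrial DNA. Endothelial cells are known to draw much of their ATP from glycolysis, and their respiratory chain is known to serve signalling and the regeneration of electron acceptors for biosynthesis.

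Cells were sorted from livers of male C57BL/6J mice aged 10 to 12 weeks, with 1 library per mouse. The 6 conventionally raised (CONV-R) mice were kept under specific-pathogen-free conditions, and the 5 Germ-free (GF) mice came from a colony bred in sterile isolators, so their lack of microbes was lifelong and not a treatment of adults. Neither group carried a transgene or received an agent. Libraries are named by group and replicate number, and no GF library carries the number 3. The sort selected cells positive for CD31, CD105 and CD146.

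Total counts ranged from 7922855 to 14669352 in the CONV-R libraries and from 7242717 to 16164588 in the GF libraries. The 12 sinusoidal EC markers (among them *Stab2*, *Lyve1* and *Clec4g*) summed to between 31965 and 44280 CPM (counts scaled to a common library size) in every library. None of the 12 was called at an edgeR adjusted p under 0.05 (against 7.48% of all tested genes), and 5 had an unadjusted p under 0.05 (41.7%, against 23%). The 10 hepatocyte markers summed to between 26.4 and 74.4 CPM. The 10 Kupffer cell markers summed to between 98.5 and 256 CPM in CONV-R and between 236 and 1058 CPM in GF libraries, with 6 of 10 higher in GF mice. The 5 cholangiocyte markers summed to between 0.137 and 8.96 CPM in CONV-R and between 13.6 and 36.8 CPM in GF libraries, without overlap, and of the 2 tested 1 was higher, *Spp1*. Erythroid markers summed to between 19.0 and 36.1 CPM in CONV-R and between 4.88 and 24.3 CPM in GF libraries, and lymphocyte markers to between 26.7 and 56.6 and between 28.9 and 51.4 CPM, with 0 of 5 tested called in each list. The stellate cell and platelet markers summed to at most 31.9 and 14.8 CPM, with 0 called. The part of these differences in the respiratory chain values was not tested. One library stood apart for the respiratory chain genes, CONV-R 3, and the main counts and the values it changes are therefore given with and without it.

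Members' promoters are known for sites of nuclear respiratory factor 1 (NRF1), a transcription factor of mitochondrial genes. To show what such promoters look like, 100 bases upstream of a complex I and of a complex IV gene are printed 5′ to 3′ from RefSeq (GRCm38.p6), with the NRF1 motif (GCGCA, any base, then GCGC) in capitals. They are the most highly counted member of each complex with a motif in a stretch outside annotated exons. The motif starts 98 bases before the annotated start of *Ndufs5* and 162 and 117 bases before that of *Cox6a1*.
Ndufs5, chr4:123718230-123718329, minus strand: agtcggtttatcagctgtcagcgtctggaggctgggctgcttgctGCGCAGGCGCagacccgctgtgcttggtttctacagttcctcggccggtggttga
Cox6a1, chr5:115349030-115349129, minus strand: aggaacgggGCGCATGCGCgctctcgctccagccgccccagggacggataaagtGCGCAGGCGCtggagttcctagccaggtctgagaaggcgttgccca

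The RefSeq promoter table (250 bases before to 50 bases after each start) held 49 of the 59 members that could be tested. On either strand the NRF1 motif was present in 11 of these 49 (22.4%), against 5.19% of 27025 genes. The 27025 are all genes of the promoter table, expressed in these cells or not, and a share among tested genes alone was not computed. These 11 were *Cox6a1*, *Ndufa11*, *Ndufa5*, *Ndufa6*, *Ndufa8*, *Ndufb4*, *Ndufs5*, *Ndufs6*, *Sdha*, *Sdhd* and *Uqcrc1*. The motif AAGATGGC of YY1 was present in 7 (14.3%, against 3.19% of genes), and the ETS motif CCGGAAGT in 4 (8.16%, against 4.31%). The members' promoters had a median GC content of 58.3% and a median of 19 CpG sites, against 52.7% and 7 in all promoters. These are matches of letters in windows and not measured binding.

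Transcripts of all 4 complexes were detected. Together the 67 members took 0.136% to 0.212% of the counts of a CONV-R library and 0.123% to 0.178% of a GF library. Counts were scaled to CPM with TMM-adjusted library totals, and levels of different genes are compared only as CPM per kilobase of exonic sequence (GENCODE M21). On this scale of level, *Cox6a1* was first with 66.2 ± 25.9 (SD, n = 6) in CONV-R and 74.1 ± 24.3 (SD, n = 5) in GF mice. *Sdha*, the flavoprotein of complex II, followed with 56.6 ± 6.47 and 56.8 ± 2.98, which lies within the spread of *Cox6a1*. *Uqcrc2*, a core protein of complex III, had 32.6 ± 3.78 and 37.1 ± 3.65. The lowest tested member was *Ndufb4* with 1.46 ± 0.609 and 1.03 ± 0.544. Exonic length counts all annotated transcripts, so a gene with long retained introns, such as *Ndufb2* (5628 bases), has its level understated.

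Of the 67 members, 59 passed the filter on low counts: all 35 of complex I, all 4 of complex II, all 8 of complex III and 12 of 20 of complex IV. The 8 that did not pass are alternative isoforms, most of them known from other tissues. None of the 59 tested members was higher and none was lower in GF than in CONV-R mice at an adjusted p under 0.05 (edgeR quasi-likelihood test, Benjamini-Hochberg over all 12905 tested genes). In the same test 7.48% of all genes were called, 4.8% as higher and 2.67% as lower. With library totals alone as the scaling, the higher genes made up 52.2% of all calls in place of 64.2%, and 0 members were called. At an unadjusted p under 0.05 there were 3 members, *Sdhb*, *Uqcrc1* and *Cox7a2*, or 5.08%, against 23% of all genes. DESeq2 called 0 of its 60 members, with 9.83% of 15540 genes called, and limma voom called 0 of 59. The CPM of the groups overlapped for every tested member, whereas they did not overlap for 5.59% of all genes. In sorted bulk cells, a change in the share of cells of a type and a change in RNA per cell cannot be told apart.

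The median Log2FC (GF relative to CONV-R) of the 59 members was 0.02, and that of all tested genes was -0.01. In all, 31 members (52.5%) lay above 0, against 49.1% of all genes. The precision differed between members. The 95% confidence interval lay within a 2-fold change in either direction for 45 of the 59 and within a 1.5-fold change for 18, so that for 14 members a 2-fold difference was not excluded at this depth and number of mice. The plot of Log2FC by member shows these intervals.

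**Figure D1:**
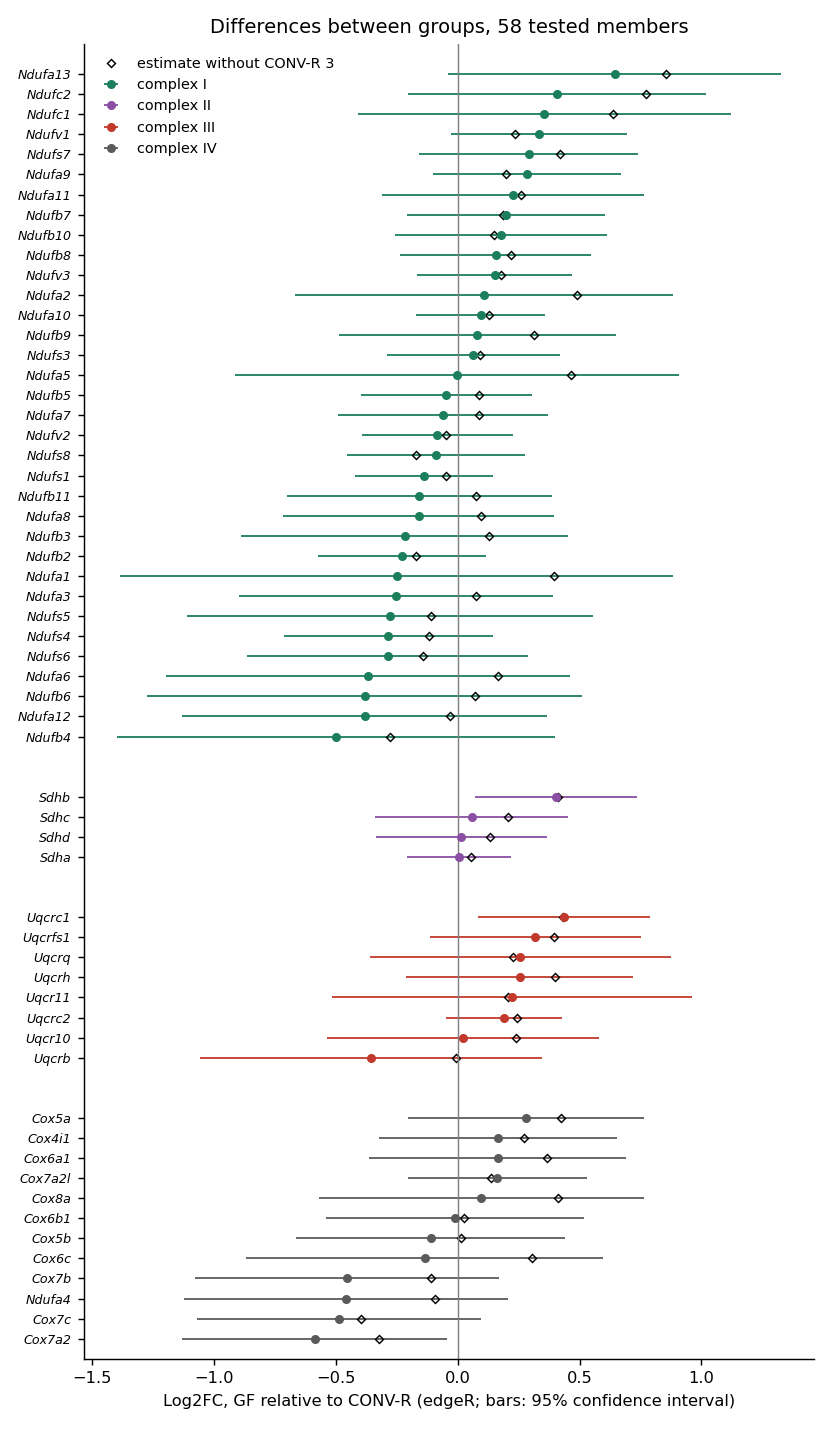
Log2FC (x axis, GF relative to CONV-R) of 58 tested members (y axis), in the order complexes I to IV from top to bottom. Filled points with bars are edgeR estimates with 95% confidence intervals from all 11 libraries, and open diamonds are the estimates without CONV-R 3. The intervals of all members shown but *Sdhb*, *Uqcrc1* and *Cox7a2* hold 0, and most open diamonds lie to the right of the filled points.

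Complex I oxidises NADH. Of its 35 tested members 0 were called in either direction, 15 lay above 0 and 20 below, and the median Log2FC was -0.06. The 7 nuclear core subunits carry the flavin, the iron-sulfur clusters and part of the ubiquinone site and are conserved from bacteria. Their summed level ranged only from 262 to 322 CPM over the 11 mice. It was 293 ± 15.3 CPM (SD, n = 6) in CONV-R and 288 ± 16.3 CPM (SD, n = 5) in GF mice, and the highest Log2FC among them was 0.33 (*Ndufv1*). The interval of each of the 7 lay within a 2-fold change.

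*Ndufv1*, which carries the flavin that takes electrons from NADH, had 42.1, 47.3, 23.9, 38.4, 30.0 and 40.3 CPM in CONV-R and 53.5, 54.1, 38.9, 37.1 and 49.9 CPM in GF mice. GF 1, GF 2 and GF 6 were above all CONV-R mice and CONV-R 3 was the lowest of all (Log2FC 0.33, interval -0.03 to 0.69, adjusted p = 0.252). *Ndufs1*, the largest core subunit with several iron-sulfur clusters, had 70.6 ± 11.6 and 64.1 ± 8.95 CPM (adjusted p = 0.591). *Ndufs7* and *Ndufs8*, which carry the last clusters before ubiquinone, had 15.9 ± 4.77 against 19.4 ± 4.43 CPM and 23.1 ± 5.09 against 21.8 ± 3.05 CPM.

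The 28 accessory members of complex I, which surround the core and are needed for its assembly and stability, spanned a wider range. The highest Log2FC of the complex was that of *Ndufa13*, also known as GRIM-19. It had 7.60, 4.78, 9.82, 3.94, 5.17 and 2.87 CPM in CONV-R 1 to 6 and 6.24, 6.28, 13.6, 6.35 and 11.8 CPM in GF mice, so that GF 4 and GF 6 were highest while the other GF mice lay among the CONV-R values (Log2FC 0.64, interval -0.04 to 1.33, adjusted p = 0.246). The lowest was that of *Ndufb4*, with 2.79 ± 1.17 and 1.98 ± 1.04 CPM (Log2FC -0.50, interval -1.40 to 0.40, adjusted p = 0.526), from 289 counts in all libraries together.

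Accessory subunits of the peripheral arm, where NADH is oxidised, had their own spread. *Ndufs4* and *Ndufs6*, needed to attach the NADH-oxidising module, had 48.2 ± 13.4 against 39.6 ± 11.5 CPM (adjusted p = 0.434) and 6.34 ± 1.62 against 5.17 ± 1.84 CPM (adjusted p = 0.577). In *Ndufs4* CONV-R 3 had 75.4 CPM, the other CONV-R mice lay between 40.4 and 44.6 CPM, and the GF mice between 25.9 and 50.3 CPM. *Ndufv3*, a small partner of the flavin subunit, had 18.4 ± 2.86 against 20.4 ± 1.07 CPM, and its GF mice all lay between 19.0 and 21.6 CPM. *Ndufa9*, a nucleotide-binding subunit beside the ubiquinone site, had 25.9 ± 4.81 against 31.6 ± 8.22 CPM, with CONV-R 3 the lowest of all mice at 17.6 CPM and GF 6 the highest at 43.3 CPM (Log2FC 0.29, interval -0.10 to 0.67, adjusted p = 0.371).

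*Ndufc2* (ENSMUSG00000030647, GRCm38 chr7:97400003-97407802, plus strand in GENCODE M21), a small membrane-arm subunit, is the member whose call changed when a single mouse was left out, and it was chosen for description after its values were seen. Other members moved further without the same mouse: *Ndufa1* from -0.25 to 0.40 and *Ndufa6* from -0.37 to 0.17 in Log2FC, with 0 called. It had 14.4, 13.0, 33.0, 8.999, 11.7 and 10.8 CPM in CONV-R 1 to 6 and 18.4, 12.7, 26.7, 21.4 and 21.8 CPM in GF mice. CONV-R 3 was the highest of all 11 mice, and the other 5 CONV-R mice lay below 4 of the 5 GF mice. With all libraries the Log2FC was 0.41 (interval -0.20 to 1.02, adjusted p = 0.429). Without CONV-R 3 it was 0.77 (adjusted p = 0.0271), the only call among the 59 members in that comparison, in which 7.27% of all genes were called. Without each of the other libraries in turn no member was called.

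Complex II, succinate dehydrogenase, is also the tricarboxylic acid cycle enzyme and has no subunit from mitochondrial DNA. All 4 members were tested and 0 were called. Their Log2FC lay between 0.01 and 0.40 with a median of 0.04. *Sdha* (ENSMUSG00000021577, chr13:74322254-74350280, minus strand), which binds the flavin and oxidises succinate, was the most counted member with 28785 counts. It had 199, 212, 275, 244, 243 and 229 CPM in CONV-R 1 to 6 and 221, 231, 234, 254 and 232 CPM in GF mice, with every GF value inside the CONV-R range (Log2FC 0.01, interval -0.21 to 0.22, adjusted p = 0.983). *Sdhb* (ENSMUSG00000009863, chr4:140961203-140979193, plus strand), the iron-sulfur subunit, had 21.8, 20.3, 20.1, 16.8, 17.5 and 20.1 CPM in CONV-R and 21.2, 19.1, 30.3, 30.0 and 28.2 CPM in GF mice. GF 4, GF 5 and GF 6 were above all CONV-R mice, while GF 1 and GF 2 lay among them (Log2FC 0.40, interval 0.07 to 0.74, adjusted p = 0.134). The membrane anchors *Sdhc* (35.6 ± 9.30 against 37.0 ± 9.19 CPM) and *Sdhd* (33.7 ± 7.26 against 34.1 ± 6.48 CPM) were close to equal, with Log2FC of 0.06 and 0.02. The positions of *Sdha*, *Sdhc* and *Sdhd* just above 0 depended on scaling: with library totals alone all 3 lay below 0.

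Complex III passes electrons from ubiquinol to cytochrome c. Of its 8 members 0 were called, 7 lay above 0 (against 49.1% of all genes, 6 with upper-quartile scaling or library totals alone, and 5 with drawn-down counts), and the median Log2FC was 0.24. *Uqcrc1* (ENSMUSG00000025651, chr9:108936633-108949623, plus strand), a core protein, had the smallest p of all members. It had 32.0, 30.2, 24.3, 21.5, 16.1 and 23.4 CPM in CONV-R 1 to 6 and 32.6, 33.0, 37.3, 34.8 and 28.7 CPM in GF mice. All GF mice but GF 6 were above all CONV-R mice, and GF 6 lay below CONV-R 1 and CONV-R 2 (Log2FC 0.44, interval 0.08 to 0.79, adjusted p = 0.124). Without CONV-R 3 the value was nearly the same (0.43, adjusted p = 0.142). The smallest adjusted p over the leave-one-out fits was 0.0645, without CONV-R 1.

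*Uqcrc2*, the other core protein, had 71.4, 84.9, 98.8, 79.1, 87.5 and 76.7 CPM in CONV-R and 86.1, 84.5, 106, 96.2 and 101 CPM in GF mice, with overlap between 84.5 and 98.8 CPM (Log2FC 0.19, interval -0.05 to 0.43, adjusted p = 0.332). Of its exonic bases 19.7% overlap *Pdzd9* on the opposite strand. *Uqcrfs1*, the Rieske iron-sulfur protein, had 24.9 ± 5.06 and 31.1 ± 9.67 CPM. GF 4, GF 5 and GF 6 were above all CONV-R mice, whereas GF 1 and GF 2 were at 19.7 and 21.7 CPM (Log2FC 0.32, adjusted p = 0.377). The single member below 0 was *Uqcrb*, the ubiquinone-binding protein, with 10.01, 11.7, 31.4, 11.8, 12.9 and 11.7 CPM in CONV-R and 7.41, 5.70, 11.5, 19.2 and 14.8 CPM in GF mice. CONV-R 3 was far above the other CONV-R mice, and without it the Log2FC moved from -0.35 to -0.01. The small subunits *Uqcr10*, *Uqcr11*, *Uqcrh* and *Uqcrq* had Log2FC between 0.02 and 0.26.

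Complex IV, cytochrome c oxidase, reduces oxygen to water. Of its 12 tested members 0 were called, 5 lay above 0 and 7 below, and the median Log2FC was -0.06. *Cox7a2* (ENSMUSG00000032330, chr9:79755361-79759878, minus strand), a structural subunit found in most tissues, had the lowest Log2FC of all members. It had 14.0, 15.02, 33.4, 14.0, 16.8 and 14.5 CPM in CONV-R 1 to 6 and 9.75, 8.11, 12.5, 17.7 and 11.7 CPM in GF mice. GF 1, GF 2, GF 4 and GF 6 were below all CONV-R mice and GF 5 was above all of them but CONV-R 3 (Log2FC -0.59, interval -1.13 to -0.04, adjusted p = 0.181). Without CONV-R 3 it was -0.32 (adjusted p = 0.3497).

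*Cox7c* (7.79 ± 2.03 against 5.55 ± 2.03 CPM), *Cox7b* (24.7 ± 13.2 against 18.1 ± 7.12 CPM) and *Ndufa4* (41.3 ± 23.3 against 30.1 ± 12.2 CPM) also had Log2FC between -0.48 and -0.45, with adjusted p of 0.309, 0.383 and 0.414. In *Cox7b* CONV-R 3 had 51.6 CPM and the other CONV-R mice between 17.1 and 21.4 CPM. In *Ndufa4* CONV-R 3 had 88.3 CPM and the others between 28.3 and 37.8 CPM. Without CONV-R 3 the Log2FC of these 3 were -0.39, -0.11 and -0.09. *Cox5a*, a subunit on the matrix side, had the highest Log2FC of the complex with 11.4 ± 3.69 and 13.8 ± 3.22 CPM (0.28, adjusted p = 0.503).

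For subunits with alternative isoforms, the ubiquitous isoform was the one counted. *Cox4i1* had 34.2 ± 10.2 CPM (SD, n = 6) in CONV-R and 38.3 ± 14.2 CPM (SD, n = 5) in GF mice (adjusted p = 0.724). *Cox4i2*, the isoform of lung and low oxygen, had 6 counts over all libraries. *Cox6a1* had 57.2, 43.9, 78.1, 34.1, 32.5 and 33.1 CPM in CONV-R and 48.1, 26.9, 74.2, 57.0 and 53.7 CPM in GF mice, which overlapped through most of their range (adjusted p = 0.749). Its heart and muscle isoform *Cox6a2* had 0 counts, as did *Ndufa4l2*, which is known to replace NDUFA4 under low oxygen. A count of 0 allows up to 3 counts, or 0.195 to 0.407 CPM depending on the library, and covers counting error only.

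*Cox6b1* had 10.7 ± 3.01 and 10.6 ± 3.58 CPM (adjusted p = 0.990), and the testis isoform *Cox6b2* had 9 counts. *Cox8a* had 11.9 ± 6.52 and 12.6 ± 4.41 CPM (adjusted p = 0.898), with 9 counts of *Cox8b*, 2 of *Cox8c* and 2 of *Cox7b2*. All counts of *Cox7b2* and *Cox8c* were in GF 2. *Cox7a1*, the heart and muscle isoform of *Cox7a2*, was the only minor isoform with counts in every library. It had 2, 5, 12, 2, 3 and 3 counts in CONV-R 1 to 6 and 3, 3, 8, 11 and 3 counts in GF mice, which did not differ detectably at this depth (two-sided exact permutation test on CPM over all splits of the mice, p = 0.498). *Cox7a2l* had 25.9 ± 3.66 and 29.0 ± 7.06 CPM (adjusted p = 0.628).

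**Figure D2:**
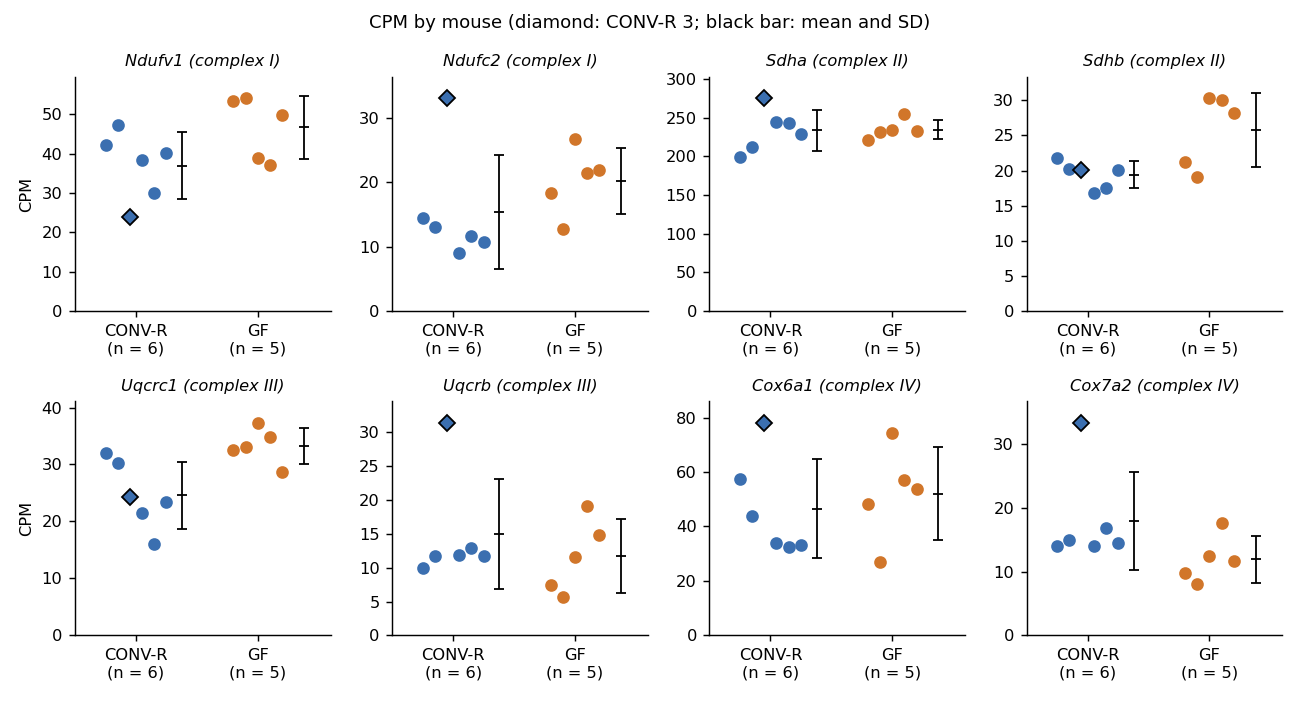
CPM (y axis, from 0) of 8 members in each CONV-R mouse (blue) and GF mouse (orange), with the mean and SD of each group as black bars. The diamond is CONV-R 3, which is the lowest mouse for *Ndufv1*, the highest for *Ndufc2*, *Sdha*, *Uqcrb*, *Cox6a1* and *Cox7a2* and lies among the other CONV-R mice for *Sdhb* and *Uqcrc1*.

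The spread between mice of a group was wide. The within-group SD of log2 CPM had a median of 0.40 over the 59 members, against 0.33 over all tested genes. Summed over members, CPM was 1488 ± 283 (SD, n = 6) in CONV-R and 1508 ± 226 (SD, n = 5) in GF mice, a difference inside the spread. The medians were 1360 and 1553 CPM, since CONV-R 3 raised both the mean and the SD of its group. CONV-R 3 had 2059 CPM and the other CONV-R mice between 1342 and 1457. GF 4, GF 5 and GF 6 lay above every CONV-R mouse but CONV-R 3, and GF 1 and GF 2 lay below all CONV-R mice. The GF mice ranged more evenly from 1234 (GF 2) to 1737 (GF 4).

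Most mice lay on the same side of 0 in every complex. Expressed as the mean log2 deviation of each gene from its own mean over 11 libraries, CONV-R 3 was at 0.63 for complex I, 0.31 for complex II, 0.32 for complex III and 0.79 for complex IV. GF 2 was at -0.40, -0.22, -0.21 and -0.59. GF 4 was above CONV-R 3 in complexes II and III, at 0.31 and 0.40, and in complex III CONV-R 5 and CONV-R 6 were below GF 2, at -0.28 and -0.24. GF 4 and GF 5 lay above 0 for all 4 complexes, and CONV-R 2, 4, 5 and 6 lay below 0 for all 4. After removal of the group means, the deviations of any pair of complexes correlated over the 11 libraries with r between 0.93 and 0.97, and without CONV-R 3 with r between 0.90 and 0.95. These points share their libraries and depth, and the value is a description.

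**Figure D3:**
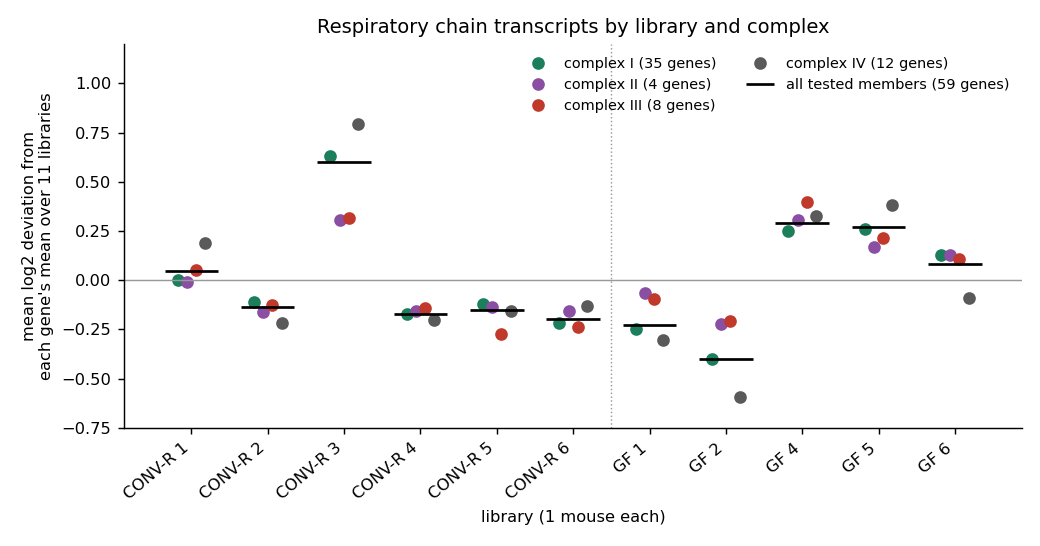
Mean log2 deviation of the genes of each complex from their own means over 11 libraries (y axis), for each library (x axis). Coloured points are complexes I to IV, and the black line is the mean of all 59 tested members. The line is highest at CONV-R 3 and lowest at GF 2, GF 4 is the highest library for complexes II and III and CONV-R 5 the lowest for complex III, and the complexes lie on the same side of 0 in all libraries but CONV-R 1 and GF 6.

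CONV-R 3 held the highest value of 35 of the 59 members (59.3%), against 19.8% of the 12846 other tested genes. By complex these were 22 of 35, 3 of 4, 2 of 8 and 8 of 12. GF 2 held the lowest value of 23 members, against 8.69% of other genes. The pattern was also present outside the chain. CONV-R 3 held the highest value of 9 of 16 complex V genes, 31 of 75 mitochondrial ribosomal protein genes and 31 of 76 cytosolic ribosomal protein genes, with mean log2 deviations of 0.44, 0.30 and 0.35, and GF 2 had the lowest mean deviation of all libraries in each of these sets. After removal of the group means, the members' mean deviation correlated with that of these sets over the 11 libraries with r of 0.98, 0.97 and 0.86 (0.97, 0.97 and 0.81 without CONV-R 3), a description of sets that share libraries and depth. In the cytosolic ribosomal protein genes GF 5 was as high as CONV-R 3, with 69 of 76 genes above their own mean against 53 of 76. The tricarboxylic acid cycle enzymes followed the pattern less closely, with r of 0.59 (0.27 without CONV-R 3). Among them GF 4 was at 0.17 and CONV-R 3 at 0.12, and GF 2 was not the lowest library. The pattern was not shared by all members. *Ndufs8*, *Ndufv1* and *Ndufa9* had their lowest value in CONV-R 3, with log2 deviations of -0.43, -0.75 and -0.66, while *Ndufa1*, *Ndufa6*, *Ndufb6* and *Ndufa5* deviated there by 1.84, 1.72, 1.55 and 1.48.

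**Figure D4:**
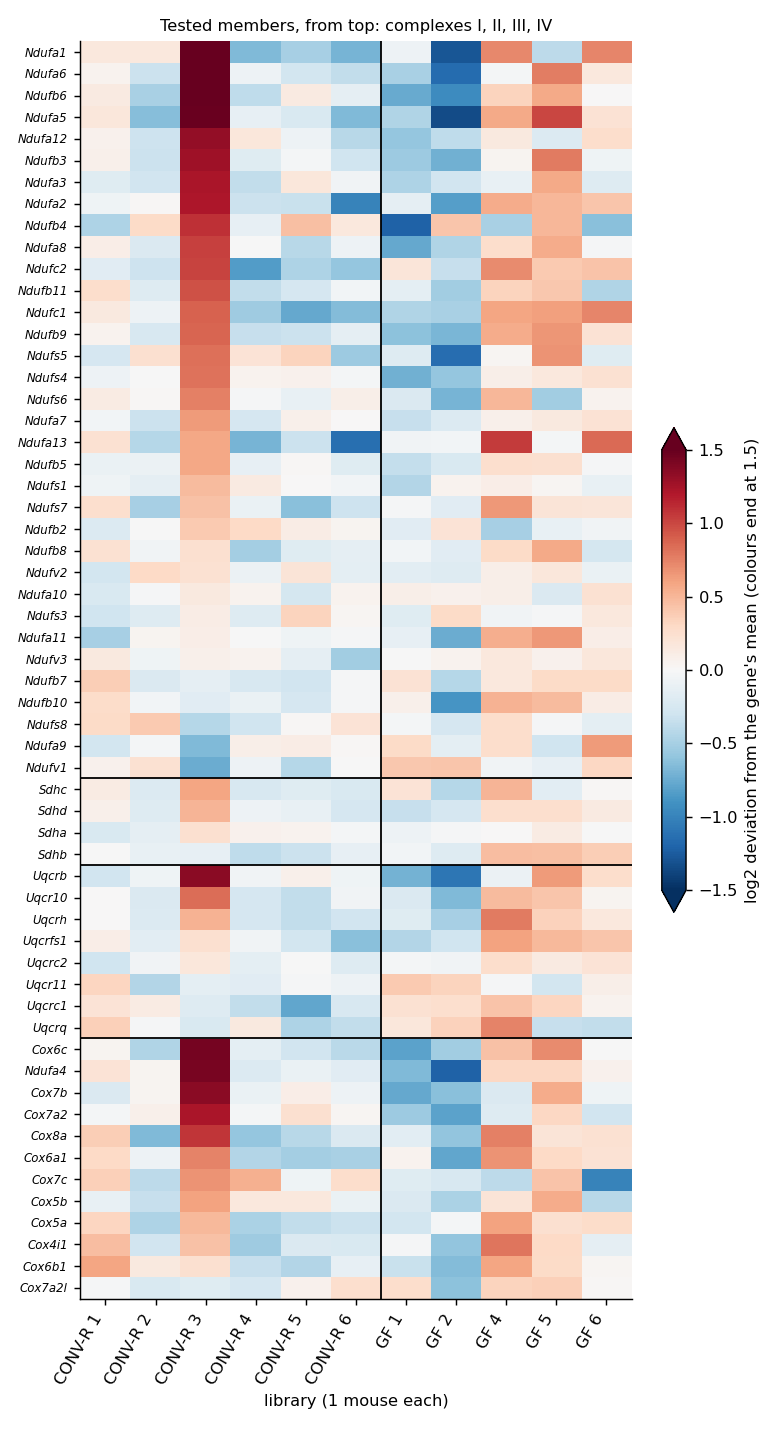
Log2 deviation (colour) of 58 tested members (rows, sorted within each complex by their value in CONV-R 3) from their own mean, in the 11 libraries (columns). The column of CONV-R 3 runs from deep red to blue within complex I, from 1.84 for *Ndufa1* to -0.75 for *Ndufv1*, and GF 2 is the lowest library for 23 of all 59 tested members.

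In some libraries the deviations differed between short and long members. In CONV-R 3 the 30 members with an exonic length up to the members' median of 1478 bases were at a mean of 0.80 and the 29 longer members at 0.39. The 1083 other tested genes of up to that length were at 0.14 and the 11741 longer ones at -0.03. In GF 2 the shorter members were at -0.64 and the longer at -0.16, while the shorter other genes were at -0.03. In CONV-R 5 the shorter and longer members were at -0.16 and -0.14, and in GF 6 both were at 0.08. The shorter members and the shorter other genes lay on opposite sides of 0 in GF 4 (0.36 and -0.16), GF 6 (0.08 and -0.26) and all CONV-R libraries but CONV-R 1 and CONV-R 3. Of the shorter other genes 26.0% had their highest value in CONV-R 3. Over the 59 members, the within-group SD and exonic length had a Spearman rho of -0.64, and the within-group SD and mean log2 CPM had -0.52, descriptions over genes that share libraries. The parts of length and of level were not separated. Within complex I, the mean log2 deviation spanned 0.24 over the 11 libraries for the core subunits and 1.27 for the accessory subunits. The core mean joins genes that went opposite ways. In CONV-R 3 *Ndufv1* and *Ndufs8* were at -0.75 and -0.43, and *Ndufs1* and *Ndufs7* at 0.47 and 0.44.

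**Figure D5:**
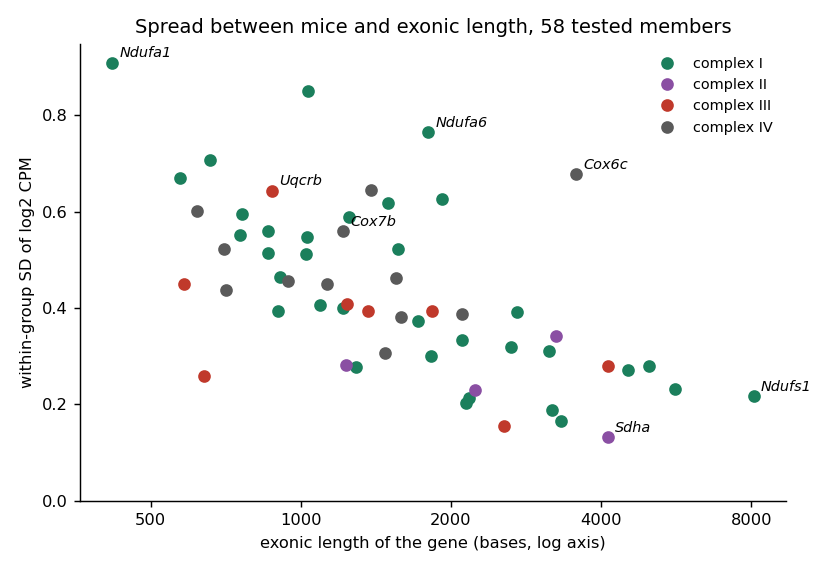
Within-group SD of log2 CPM (y axis) against exonic length in bases (x axis, log scale) for 58 tested members, coloured by complex. The spread is largest for short genes such as *Ndufa1* (0.91) and small for long genes such as *Sdha* (0.13), and *Cox6c* (0.68) is a long gene with a wide spread.

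Leaving out CONV-R 3 moved most members upward, with exceptions such as *Ndufv1* (from 0.33 to 0.24), *Ndufa9* (from 0.29 to 0.20) and *Ndufs8* (from -0.09 to -0.17). Among other described members, *Ndufa13* moved from 0.64 to 0.86, *Ndufb4* from -0.50 to -0.28 and *Ndufs4* from -0.28 to -0.12. *Ndufs7* moved from 0.29 to 0.42, *Cox5a* from 0.28 to 0.42, *Cox6a1* from 0.16 to 0.37 and *Cox8a* from 0.10 to 0.41. *Sdhc* and *Sdhd* moved from 0.06 to 0.20 and from 0.02 to 0.13. The median Log2FC of the 59 members became 0.15, with that of all tested genes at 0.0019, and 44 members lay above 0 (against 50.2% of all genes): 25 of 35 in complex I, 4 of 4 in complex II, 7 of 8 in complex III and 8 of 12 in complex IV. *Ndufc2* was the single call. CONV-R 3 was the shallowest CONV-R library. The 3 shallowest libraries of all, GF 5, GF 6 and CONV-R 3, had mean deviations of the members of 0.27, 0.08 and 0.60, and the deepest, GF 1, had -0.23. The next shallowest, GF 2 and GF 4, lay far apart at -0.40 and 0.29. GF 2 also had the most genes with counts, 22674, against 15456 to 18495 in the other libraries. The parts of depth and of the number of genes with counts in this pattern were not tested. With every library drawn down to the smallest total, 0 members were called and the median Log2FC was -0.0020.

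The genes that act with the chain were given for comparison, from lists made by function. Complex V, the ATP synthase, had 16 tested genes, 0 called, and a median Log2FC of 0.04. Its catalytic beta subunit *Atp5b* had 398 ± 16.9 CPM in CONV-R and 504 ± 104 CPM in GF mice (Log2FC 0.34, adjusted p = 0.103), and it was called only in the fit without GF 5. Assembly factors numbered 41 with 0 called and a median of -0.10, electron carriers and feeders 20 with 0 called and -0.04, and tricarboxylic acid cycle enzymes 17 with 0 called and 0.06. The smallest p among the cycle enzymes was that of malate dehydrogenase *Mdh2*, with 57.5 ± 9.58 and 77.2 ± 17.1 CPM (Log2FC 0.43, adjusted p = 0.104), which was also called without GF 5. No gene of mitochondrial DNA was analysed here: 0 of its 13 subunit genes were listed.

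Of 15 regulators of mitochondrial biogenesis, 1 was lower and 0 were higher, against 2.67% of all tested genes lower, so that a single call in so short a list is no result about the regulators. *Tfam*, which packages and transcribes mitochondrial DNA, had 44.2, 44.2, 59.2, 52.3, 44.2 and 41.8 CPM in CONV-R 1 to 6 and 31.9, 29.4, 43.1, 37.4 and 28.1 CPM in GF mice. The groups overlapped only through GF 4 (Log2FC -0.49, SE 0.14, edgeR adjusted p = 0.0488). The call was close to the threshold: it held in 2 of the 11 leave-one-out fits, with adjusted p between 0.0221 and 0.121, and without CONV-R 3 it was 0.0727. It was also lost with the size factors of DESeq2 in edgeR, with no filter, with counts drawn down to the smallest library and with the GC and length correction. *Ppargc1a*, the coactivator that drives the programme, had a low level of 0.766 ± 0.455 and 1.71 ± 1.03 CPM (adjusted p = 0.207), and *Nrf1* had 49.4 ± 4.84 and 43.5 ± 4.53 CPM (adjusted p = 0.372). Of 75 mitochondrial ribosomal protein genes, 1 was lower, a smaller share than the 2.67% of all tested genes. It was *Mrpl32* (20.5 ± 8.06 against 10.9 ± 3.48 CPM, Log2FC -0.91, adjusted p = 0.0383), and it was called in 5 of the 11 leave-one-out fits but neither with drawn-down counts nor with the GC and length correction. Without CONV-R 3 its Log2FC was -0.67 (adjusted p = 0.0604). DESeq2 called 3 of these genes lower, *Mrpl13*, *Mrpl32* and *Mrps17*, a share near the 3.85% of all genes it called lower.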

How the data were processed

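RNA of sorted liver sinusoidal ECs was measured in 6 CONV-R and 5 GF mice, with 1 library per mouse. Per the study's methods, cDNA was amplified from 20 ng of total RNA, fewer cells and less RNA were recovered from GF livers, and a further GF library with few mapped reads was left out by the authors. Single-end reads of 50 bases were trimmed with Trim Galore, mapped to the mouse genome (mm10, GRCm38) with STAR and counted per gene with featureCounts. The strand setting and annotation release are not given in the sources used here. The deposited table used here holds the authors' raw counts per gene. A deposited table of normalized values was not used.

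Counts were analysed with edgeR 4.0.16 in R 4.3.3: filterByExpr, TMM scaling and the quasi-likelihood test of GF against CONV-R, with Benjamini-Hochberg adjustment over all tested genes and a threshold of 0.05. CPM used TMM-adjusted totals, and log2 CPM a prior count of 2. Intervals are 95% intervals from the edgeR fit. Alternatives were DESeq2 1.42.0, limma voom 3.58.1, other scalings and filters, counts drawn down to the smallest library, a correction for GC content and length, a replicate block and leaving out each library. The steps were tested on simulated counts. Exonic lengths and positions came from GENCODE M21, which held 29081 of the 29307 genes, and promoters from RefSeq. Figures were drawn with matplotlib 3.10.9.

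The members and lists were chosen with earlier results of these data known. Values are given in full for members past the threshold, for the smallest p and the highest and lowest Log2FC of each complex, for isoform pairs, for subunits that carry flavin, iron-sulfur clusters or the ubiquinone site, and for complex II. One of these members entered every count and sum but is not reported here by name or value. *Ndufc2* was added after its values were seen. *Ndufs4*, *Ndufs6*, *Ndufv3*, *Ndufa9* and *Cox7c* were also described, beyond these criteria, and some other members are named with single values. Of the tested members, 18 share exonic bases with another listed gene (over 10% of them in *Ndufa2*, *Ndufb11*, *Ndufb5*, *Ndufb6*, *Uqcrc2* and *Cox5a*), and 6 processed pseudogenes with member names, among them copies of *Uqcrh*, *Ndufa11*, *Ndufb4*, *Ndufs6* and *Cox6c*, have no row of their own, so the counts of these members are less certain.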

Additional observations from a re-analysis of the deposited data

Results flagged for a closer look

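Among 128 groups of values (59 members and 5 sums, in each group of mice), 34 held a value that stood apart from the rest of its group by Dixon's criterion, which chance alone meets in about 1 of 20 groups. Of these, 30 were CONV-R 3, each time as the highest value. The flags are not independent, since most members were high together in that library, with exceptions such as *Ndufv1*, *Ndufa9* and *Ndufs8*, which were lowest there. They are given here as values, with the next highest CONV-R value where it is of use, and their cause was not tested.

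In sums over tested members, CONV-R 3 had 2059 CPM for all 59, against 1457 in the next CONV-R mouse. By complex it had 987 CPM for complex I (next 707), 396 for complex II (next 322), 237 for complex III (next 182) and 439 for complex IV (next 276).

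In complex I the CPM in CONV-R 3 were 8.10 for *Ndufa1* (next 2.40), 9.45 for *Ndufa12*, 12.9 for *Ndufa2*, 17.6 for *Ndufa3*, 18.2 for *Ndufa5* and 45.8 for *Ndufa6* (next 14.4). They were 17.8 for *Ndufa7*, 47.4 for *Ndufa8*, 25.4 for *Ndufb11*, 30.9 for *Ndufb3*, 52.4 for *Ndufb5* and 10.7 for *Ndufb6* (next 3.88). They were 52.2 for *Ndufb9*, 33.0 for *Ndufc2*, 75.4 for *Ndufs4* (next 44.6) and 9.58 for *Ndufs6*. None of these 16 is a core subunit.

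In the other complexes the CPM in CONV-R 3 were 53.4 for *Sdhc* and 47.6 for *Sdhd* in complex II, and 15.6 for *Uqcr10*, 31.4 for *Uqcrb* (next 12.9) and 30.1 for *Uqcrh* in complex III. In complex IV they were 44.3 for *Cox6c* (next 16.7), 33.4 for *Cox7a2* (next 16.8), 51.6 for *Cox7b* (next 21.4) and 88.3 for *Ndufa4* (next 37.8).

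The 4 values that stood apart elsewhere were *Ndufa11* in CONV-R 1 (4.96 CPM, low), *Ndufb7* in CONV-R 1 (14.9 CPM, high) and in GF 2 (8.50 CPM, low), and *Ndufa3* in GF 5 (11.1 CPM, high).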

How the results depend on the processing

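No member was called lower under any setting, and none higher except *Ndufc2*. Leaving out each library in turn gave 0 to 1 members higher, the 1 without CONV-R 3. The deviations of same-numbered mice had low correlations (r of 0.20, 0.05, -0.01, 0.02 and 0.09 for numbers 1, 2, 4, 5 and 6). The labels give the numbers no meaning, and these values cannot exclude that same-numbered mice were handled together. A fit with the replicate number as a block, in which CONV-R 3 has no partner, gave 1 member higher, *Ndufc2* (Log2FC 0.75, adjusted p = 0.0458), with 1096 genes called against 965. That fit also called *Mdh2* higher and *Mrps9* lower. DESeq2, which tested more genes, called 1527. Under each setting the median Log2FC of each complex moved from its reported value by less than the pooled within-group SD of that complex's mean log2 deviation. The median of complex III stayed above 0 (0.11 to 0.30), and those of complexes I, II and IV lay above 0 under some settings and below 0 under others. With upper-quartile scaling, library totals alone and no filter, *Sdha* moved to -0.029, -0.054 and -0.014 and *Sdhd* to -0.021, -0.045 and -0.00070, and with library totals *Sdhc* moved to -0.012. These scalings moved the median of all genes to -0.04 and -0.07. *Cox6b1* moved to 0.11 with the GC and length correction and to 0.015 with the block. Leaving out 1 library gave ranges that cross 0 for *Cox6b1* (-0.19 to 0.13), *Sdha* (-0.037 to 0.056), *Sdhd* (-0.048 to 0.13), *Sdhc* (-0.080 to 0.20), *Cox8a* (-0.11 to 0.41), *Cox4i1* (-0.062 to 0.31) and *Cox6a1* (-0.0015 to 0.37). The settings were compared for 24 of the described members, without *Ndufs4*, *Ndufs6*, *Ndufv3*, *Ndufa9* and *Cox7c*. Of their 240 values under the other settings, 230 kept their direction and side of the threshold. The cause of these changes was not tested. Precision was low for members with few counts: *Ndufa1* had 298 counts and an interval of -1.38 to 0.89, and *Uqcr11* had 210 counts and an interval of -0.51 to 0.96.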
